A study of Mus musculus with 12 samples.

Results

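RNA sequencing of mouse mpkCCDc11 cells was used to ask which genes answer vasopressin receptor stimulation once beta-catenin has been knocked down. The comparison takes 6 of the 12 libraries of the study: 3 from cells with Ctnnb1 siRNA and dDAVP, and 3 from cells with Ctnnb1 siRNA and vehicle. They were chosen by their labels alone, and all genes of the count table entered the test. mpkCCDc11 is an immortalised mouse kidney line, given in the labels as collecting duct cells of wild-type genotype, and the line name marks a single clone. Every group shared 4 days of growth on permeable supports with siRNA at 50 nM, followed by 24 h in medium without serum or hormones. Both groups compared here carry the Ctnnb1 siRNA, and they differ in a further 24 h with 1 nM dDAVP on the basolateral side or with vehicle. The other 6 libraries, with control siRNA and the same pair of treatments, serve as the reference for the response when beta-catenin is not targeted. No label states that replicates were separate cultures, so each p-value speaks to the spread among these libraries, part of which may be technical.

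dDAVP (desmopressin) is a vasopressin analogue selective for the V2 receptor, a G protein-coupled receptor on the basolateral face of the collecting duct principal cell. The receptor acts through Gs and adenylyl cyclase, cAMP activates protein kinase A, and the kinase drives both the movement of the water channel aquaporin-2 to the apical membrane and, through CREB-family and other factors, the transcription of its gene. Beta-catenin has separate roles at cell junctions, where it links cadherins to the actin cytoskeleton, and in the nucleus, where it joins TCF/LEF factors in Wnt signalling. It is also a phosphorylation target of protein kinase A, which is one reason to study it in this pathway.

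The libraries matched their labels. Ctnnb1 (gene ID 12387, GRCm38 chr9:120933400-120960507) had 766, 745 and 761 CPM (the gene's reads scaled to the size of the library) with control siRNA and vehicle, and 776, 811 and 786 CPM with control siRNA and dDAVP. In the knockdown it had 334, 306 and 309 CPM with vehicle and 335, 342 and 326 CPM with dDAVP. The transcript was lowered but not removed in all 6 libraries of the comparison, and no effect of dDAVP on it was called (log2 difference 0.08, SE 0.0466, edgeR adjusted p = 0.506). The 6 libraries held 40210205 to 48762950 counted reads each. Of 19 principal cell markers listed 17 were in the table, and between 0 and 3 of them had no read in a given library. Krt18, Krt8, Gata3 and Hsd11b2 were read in each of the 6 libraries, with Hsd11b2 at 15.6 to 22.5 CPM. Fibroblast markers summed to 1.72 to 2.71 CPM, endothelial markers to 14.4 to 22.2 CPM and leukocyte markers to 26.5 to 32.1 CPM, with no called gene in any of these lists. Proximal tubule markers, 4 of 12 in the table, summed to 87.2 to 87.8 CPM with vehicle and 69.7 to 75.01 CPM with dDAVP, with 0 called; the part of this in the results was not tested. Podocyte markers, 4 of 8 in the table, summed to 58.1 to 70.5 CPM, and of 3 tested Synpo was called higher (not on log2 TPM, adjusted p = 0.0934) and Podxl lower. In the table were 5 of 10 fibroblast, 8 of 10 endothelial and 5 of 10 leukocyte markers. In these bulk samples, fewer cells of a kind and less RNA per cell cannot be told apart.

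One library stood apart from its mates before any gene was tested. Replicate 3 of the knockdown cells with dDAVP differed from replicates 1 and 2 by a chi-square of 43.0 and 69.7 per degree of freedom over genes, against 5.34 to 25.4 for the other replicate pairs of the study. Its reads held 1.52% mitochondrial ribosomal RNA, against 0.831% and 0.464% in its mates, and 1.61% small structural RNA, against 2.49% and 3.07%. Among 9895 genes of at least 10 CPM, 64 were more than 1.5-fold above its mates in that library and 31 more than 1.5-fold below them, while 15 genes were that far from their mates in replicate 1 and 32 in replicate 2. The mucin-like Fcgbp was at 161 CPM in that library against 67.8 and 59.0 CPM in its mates, and the signal recognition particle RNA Rn7s2 at 2574 CPM against 7046 and 8261 CPM. The counts of calls, and the folds of several genes in which it was above its mates, are also given without it.

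The response was broad and mostly upward. With dDAVP, 344 genes rose and 115 fell, together 2.78% of the 16508 genes tested (2.08% higher, 0.697% lower; edgeR quasi-likelihood test, adjusted p under 0.05). Most changes were small. The median fold was 1.39 among the risers and 1.31 among those that fell, 69 genes rose and 13 fell at least 2-fold, and 20 rose and 4 fell at least 4-fold. In all 459 called genes the 3 dDAVP libraries lay wholly on one side of the 3 vehicle libraries, a pattern also seen above in 9.54% and below in 8.30% of all genes tested. Protein-coding genes made up 437 of the 459 calls and long noncoding RNAs 14. The counts moved to 200 higher and 50 lower without vehicle replicate 1, and to 181 and 31 without vehicle replicate 2. The lower count was 53 without vehicle replicate 3 and 75 without dDAVP replicate 2, and without dDAVP replicate 3 the counts were 343 and 149. DESeq2 called 523 higher and 205 lower, and voom 451 and 223. On log2 TPM, 133 genes were called higher and 77 lower, so that the share of higher calls was 63.33% against 74.95% on counts, and the median log2 change of all tested genes was -0.0494 against -0.00493.

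A core of 137 genes, 112 higher and 25 lower, was called under each of 21 other ways of processing the data, which include leaving out each of the 12 libraries in turn. Genes described below with their values belong to that core unless a lost call is stated. This choice was made after the values were seen, so these genes are steadier than the rest of the 459. The gene lists were likewise chosen with earlier results of these data known. Their shares of calls, set beside that of all tested genes, are therefore descriptive and were not tested.

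**Figure D1:**
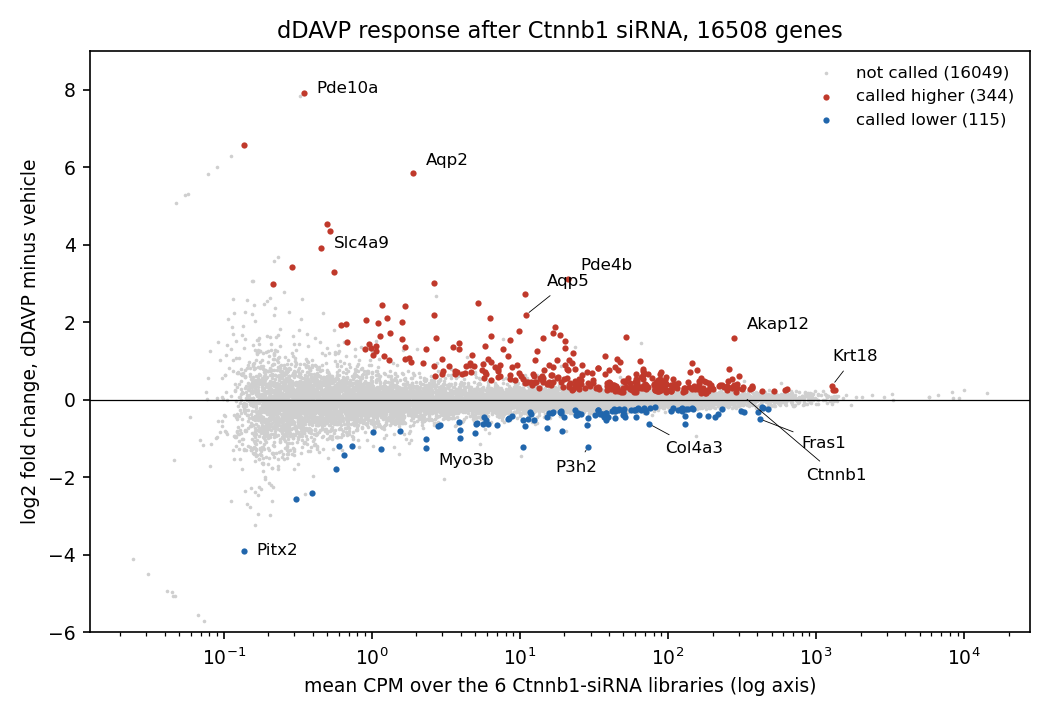
Log2 fold change of dDAVP against vehicle after Ctnnb1 siRNA (vertical axis) against mean CPM over the 6 libraries (horizontal log axis) for the 16508 tested genes. Red and blue points are the 344 genes called higher and the 115 called lower. The points of largest fold lie at the low end of the axis, where few reads stand behind each value, and Ctnnb1 itself sits close to 0.

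Among the largest changes was that of Aqp2 (gene ID 11827, chr15:99579056-99584545), the vasopressin-regulated water channel of the principal cell. Its reads numbered 2, 6 and 0 in the vehicle libraries and 187, 171 and 155 in the dDAVP libraries, which is 0.049, 0.135 and 0 CPM against 4.09, 3.91 and 3.26 CPM. The gene was thus nearly silent without dDAVP and was read in every dDAVP library, with no overlap. The ratio of reads was 58.6 (95% counting interval 29.5 to 136, for counting error only; edgeR adjusted p = 1.76e-06). Of its 8 vehicle reads, 6 came from replicate 2, and without that library the fitted log2 change went from 5.85 to 7.13. Aqp5 (chr15:99591028-99594829), another water channel that lies next to Aqp2, had 3.62, 3.58 and 4.64 CPM with vehicle and 16.4, 17.6 and 19.9 CPM with dDAVP. It rose 4.55-fold (log2 2.18, SE 0.132, adjusted p = 1.39e-07). Of 10 water channels listed, 5 were tested and 3 were called, all higher (60%, beside 2.78% of all tested genes). The third was Aqp6 (log2 1.08, edgeR adjusted p = 0.0355), whose call was lost in 7 of 21 alternatives. Among them were those without vehicle replicate 2 or 3, dDAVP replicate 2 or 3, or control-siRNA vehicle replicate 2 (edgeR adjusted p up to 0.191). The call was also lost in limma on log2 TPM (adjusted p = 0.218). A lowly read predicted gene, Gm34765, overlaps all 3 of these channels, at a mean of 0.159 CPM, so reads at shared positions are not certain in their origin.

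Upstream of Aqp2, a pair of receptor pathway genes was called. Of 14 tested genes of the V2 receptor, Gs and adenylyl cyclase list, 1 was called higher and 1 lower (14.3%, beside 2.78% of all tested genes), with a list median log2 change of 0.03 against -0.00493 over all genes tested. The receptor gene Avpr2 had 30.6, 33.2 and 34.8 CPM with vehicle and 45.3, 45.2 and 42.5 CPM with dDAVP. All 3 dDAVP libraries were above the vehicle libraries, and the call (1.35-fold, adjusted p = 0.0107) was lost without vehicle replicate 1 (adjusted p = 0.0736) or vehicle replicate 2 (0.0538). Arrb1, a beta-arrestin that uncouples receptors from G proteins, had 20.7, 21.1 and 21.4 CPM with vehicle and 15.5, 18.0 and 16.4 CPM with dDAVP. Its call (log2 -0.34, adjusted p = 0.0180) was lost in 6 alternatives. Among them were those without any one vehicle library or dDAVP replicate 1 (edgeR adjusted p up to 0.0833), and limma on log2 TPM (0.119). Gnas, which encodes Gs alpha, had a log2 difference of 0.00 (SE 0.0436), and Adcy6, an adenylyl cyclase of the collecting duct, one of 0.14 (SE 0.0613, adjusted p = 0.301).

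Phosphodiesterases, which break down cyclic nucleotides, included 3 genes called higher. Pde4b (gene ID 18578, chr4:102087332-102607275), a cAMP-specific phosphodiesterase, had 4.78, 4.33 and 3.92 CPM with vehicle and 36.3, 36.8 and 40.4 CPM with dDAVP. The groups were far apart, with a rise of 8.72-fold (log2 3.12, SE 0.167, adjusted p = 1.39e-07). Pde4d, of the same enzyme family, went from 7.98, 6.72 and 6.78 CPM to 18.6, 19.1 and 26.9 CPM, a rise of 3.01-fold, with replicate 3 the highest library. Pde10a, which hydrolyses cAMP and cGMP, had no read in any vehicle library and 40, 28 and 27 reads with dDAVP. Against a floor of 3 reads over the vehicle group the ratio of reads was 28.9 (edgeR adjusted p = 0.00067). The lower end of the 95% counting interval was 23.1, for counting error only, and the interval has no upper end. It was called in 19 of the 20 alternatives that tested it: the call was lost on log2 TPM plus 1 (adjusted p = 0.326), and the strict filter on low counts left the gene untested. Of 18 phosphodiesterase genes listed 10 were tested, of which 3 were called higher and 1 lower (40%, beside 2.78% of all tested genes). The lower one was Pde4c (1.28-fold), a call lost without vehicle replicate 1, 2 or 3 or dDAVP replicate 3 (edgeR adjusted p up to 0.0932).

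In the protein kinase A list, 2 of 18 tested genes rose and 1 was called lower (16.7%, beside 2.78% of all tested genes). Akap12, a scaffold that tethers protein kinase A beneath the plasma membrane, had 135, 137 and 145 CPM with vehicle and 339, 365 and 556 CPM with dDAVP (3.03-fold, log2 1.60, SE 0.150, adjusted p = 0.000109). Even its lowest dDAVP library was well above every vehicle library, and replicate 3 stood above the other dDAVP libraries. Prkar2b, the regulatory subunit RII beta, rose from 149, 146 and 160.4 CPM to 203, 192 and 235 CPM. The gene called lower was the kinase inhibitor Pkia (log2 -0.35), whose call was lost in 8 of 21 alternatives, among them those without vehicle replicate 2 or 3, dDAVP replicate 2 or 3, or control-siRNA vehicle replicate 2 (adjusted p up to 0.169). Sik1, a kinase that restrains the coactivators of CREB, rose from 33.6, 34.0 and 34.5 CPM to 55.4, 55.7 and 63.2 CPM. Creb1 itself had a log2 difference of -0.05 (SE 0.0496, edgeR adjusted p = 0.716). In the list of CREB and its regulators 2 of 13 tested (15.4%) were called, Sik1 and Crem, both higher (Crem without a call on log2 TPM).

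Some immediate early genes were higher with dDAVP at 24 h, the only time sampled. Of 30 tested members of the cAMP and immediate early list, 8 were called higher and 0 lower (26.7%, beside 2.78% of all tested genes). Of the 8, 6 were called in every alternative, and the list median log2 change was 0.16. The summed level of the list overlapped, at 1287.5 to 1329.9 CPM with vehicle and 1280.7 to 1427.8 CPM with dDAVP. Nr4a1 (gene ID 15370, chr15:101253902-101274795), an orphan nuclear receptor, had 14.4, 13.1 and 13.6 CPM with vehicle and 30.4, 31.6 and 32.9 CPM with dDAVP. It rose 2.31-fold (log2 1.21, SE 0.0702, adjusted p = 1.34e-07), with the spread inside each group far below the gap between them. Its relative Nr4a2 went from 3.92, 4.03 and 3.92 CPM to 7.90, 7.29 and 9.48 CPM, and the AP-1 subunit Fos from 23.7, 22.8 and 26.4 CPM to 43.4, 39.0 and 45.8 CPM. Rgs2, which speeds the shut-off of G protein signals, rose 2.55-fold from 1.81, 2.19 and 1.98 CPM to 5.45, 5.05 and 4.78 CPM. The C/EBP factors Cebpb and Cebpd rose 1.39-fold and 1.94-fold. The other called members, Btg2 and Nr4a3, were not called in every alternative, and Nr4a3 had 0, 0.203 and 0.0933 CPM with vehicle and 1.01, 0.571 and 1.45 CPM with dDAVP. Cebpd lies within the span of Spidr and Nr4a2 overlaps a predicted gene, and the use of strand in counting is not given.

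**Figure D2:**
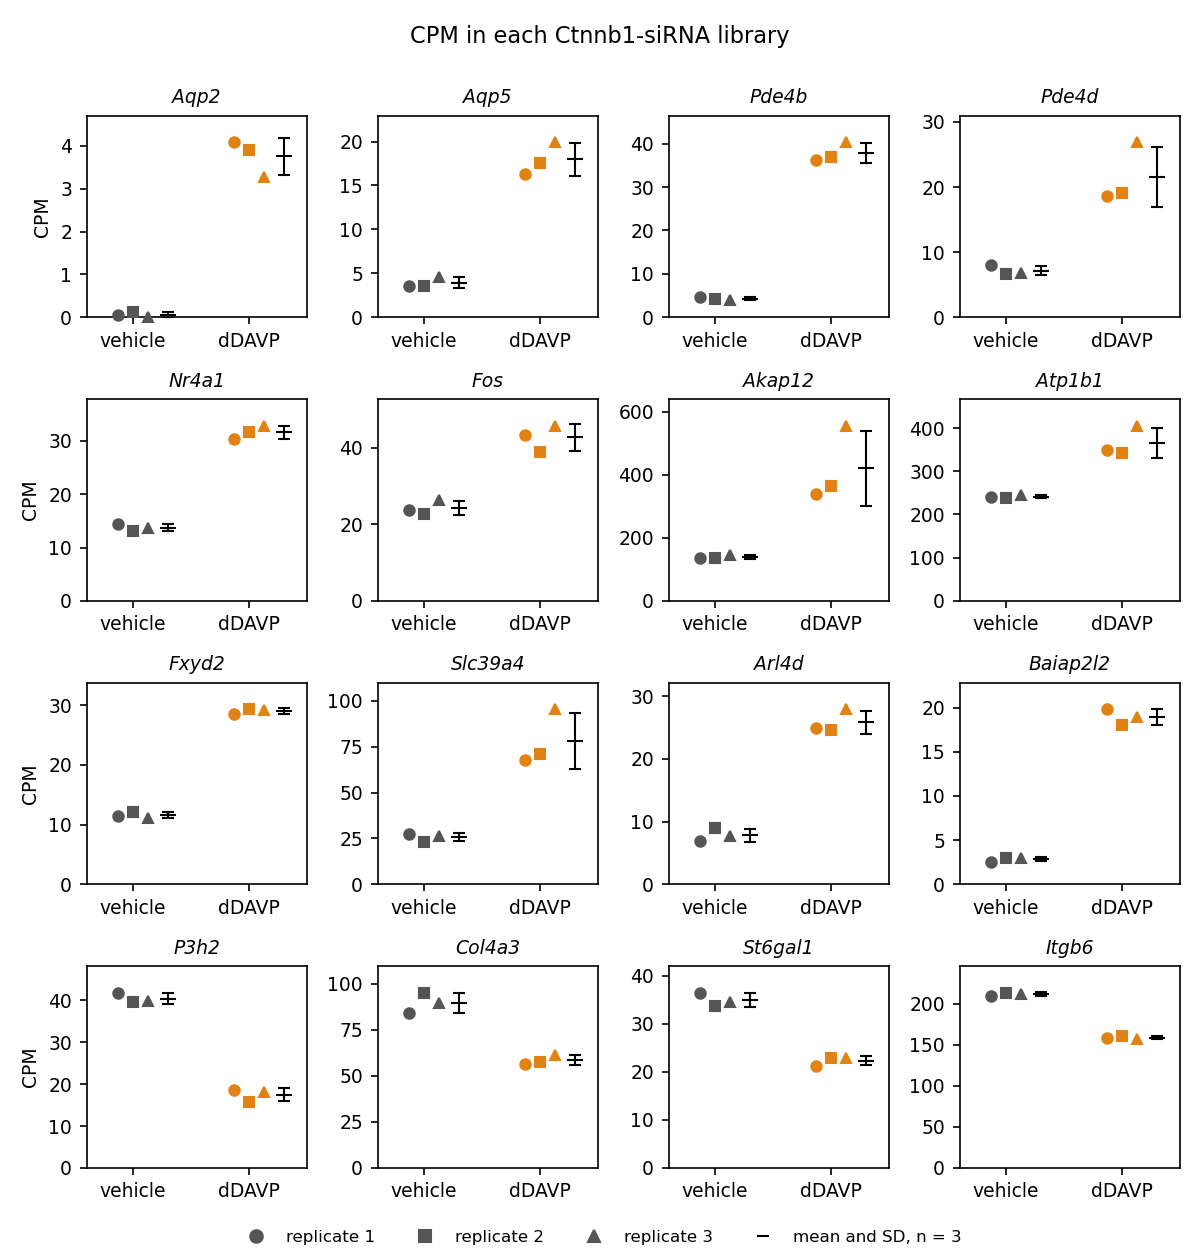
CPM of 16 genes in each of the 6 Ctnnb1-siRNA libraries, with vehicle in grey, dDAVP in orange, replicates by symbol, and the mean and SD of 3 libraries in black on axes that start at 0. In each panel the groups do not overlap, and replicate 3 with dDAVP (triangle) is the highest library for Pde4d, Akap12 and Slc39a4 but not for Aqp2 or Fxyd2.

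To show what sequence lies before genes of this dDAVP response, the 250 bases upstream of the start sites were taken from RefSeq (GRCm38.p6). The palindromic cAMP response element TGACGTCA was searched on both strands, together with its 5-base part TGACG, which every full element also contains. Among named genes called higher, Arl4d, Slc25a25 and Errfi1 held the full element within these 250 bases, and Aqp2 and Nr4a1 are added, after their values were seen, as the water channel and a nuclear receptor of the response. Capitals mark the full element in the first 3 sequences and the 5-base part, on either strand, in the last 2.
Arl4d, chr11:101665291-101665540, plus strand: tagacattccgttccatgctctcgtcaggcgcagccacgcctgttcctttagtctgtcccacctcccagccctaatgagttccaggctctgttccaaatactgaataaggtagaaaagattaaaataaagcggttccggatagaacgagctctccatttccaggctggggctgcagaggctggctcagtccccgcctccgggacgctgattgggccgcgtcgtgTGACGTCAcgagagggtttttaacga
Slc25a25, chr2:32424067-32424316, minus strand: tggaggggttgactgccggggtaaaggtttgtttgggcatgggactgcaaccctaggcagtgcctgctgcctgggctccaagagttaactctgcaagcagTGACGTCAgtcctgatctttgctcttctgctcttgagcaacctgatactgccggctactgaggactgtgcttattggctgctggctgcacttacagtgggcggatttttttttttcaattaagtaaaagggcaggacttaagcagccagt
Errfi1, chr4:150854820-150855069, plus strand: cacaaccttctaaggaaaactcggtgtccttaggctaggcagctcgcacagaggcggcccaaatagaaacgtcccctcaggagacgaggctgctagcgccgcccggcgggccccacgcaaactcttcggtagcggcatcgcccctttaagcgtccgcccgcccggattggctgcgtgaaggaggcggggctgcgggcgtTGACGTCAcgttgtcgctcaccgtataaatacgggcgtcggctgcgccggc
Aqp2, chr15:99578806-99579055, plus strand: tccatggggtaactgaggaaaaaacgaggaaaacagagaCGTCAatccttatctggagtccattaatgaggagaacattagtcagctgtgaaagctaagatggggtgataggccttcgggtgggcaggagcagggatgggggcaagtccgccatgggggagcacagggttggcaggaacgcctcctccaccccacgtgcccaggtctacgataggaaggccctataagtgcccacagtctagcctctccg
Nr4a1, chr15:101266596-101266845, plus strand: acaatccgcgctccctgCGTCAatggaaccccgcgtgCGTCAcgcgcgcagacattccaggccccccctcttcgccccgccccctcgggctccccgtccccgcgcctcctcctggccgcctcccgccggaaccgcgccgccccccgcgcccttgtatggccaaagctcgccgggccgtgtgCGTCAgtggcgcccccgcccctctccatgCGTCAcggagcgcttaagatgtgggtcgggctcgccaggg
The element begins at base -26 from the start site in Arl4d, at -150 in Slc25a25 (1 of its 3 start sites) and at -51 in Errfi1. The Aqp2 window holds the 5-base part once, at -211, and the Nr4a1 window 4 times, at -233, -213, -69 and -40.

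The genes with the full element behaved unequally. Arl4d, a small GTPase of the Arf family, rose from 6.83, 8.97 and 7.67 CPM to 25.0, 24.6 and 28.0 CPM (3.30-fold, log2 1.72, SE 0.0951, adjusted p = 9.41e-08). Slc25a25, a mitochondrial carrier of ATP-Mg and phosphate, rose 1.36-fold, from 25.6, 24.5 and 22.7 CPM to 33.0, 34.7 and 31.4 CPM. Errfi1, an inhibitor of the EGF receptor, was 1.19-fold higher, a call lost in 5 of 21 alternatives. Among them were those without vehicle replicate 2 or 3 or dDAVP replicate 1 (edgeR adjusted p up to 0.0665), and limma on log2 TPM (0.260). Plekha4, a pleckstrin homology domain gene whose window is not printed, held the full element at -57 and went the other way, from 3.16, 3.22 and 3.87 CPM to 2.36, 2.24 and 1.85 CPM (log2 -0.67). Its call was lost in 9 alternatives, among them those without any one vehicle library or dDAVP replicate 2 or 3 (adjusted p up to 0.122). Windows of 300 bases, which add the 50 bases after the start site, were at hand for only part of the genes. In them the full element was present in 7 of 255 genes called higher (2.75%) and in 1 of 79 called lower (1.27%). Of the 11680 tested genes with a window 394 held it (3.37%). Of all 32851 windows of that length 1.79% held it. The 5-base part was in 31.8% of genes called higher, 27.9% of those called lower and 33.7% of those tested. The AP-1 element TGAGTCA was in 7.84%, 8.86% and 4.85%, and the TCF/LEF core CTTTGA in 16.9%, 12.7% and 14.2%. A match says only that the letters are present, and its absence only that they are not in this window.

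Genes of sodium and potassium handling rose as a group of few members. Of 27 tested, 6 were called higher and 0 lower (22.2%, beside 2.78% of all tested genes), with a list median of 0.15. Fxyd2, the gamma subunit of the sodium pump, had 11.4, 12.2 and 11.2 CPM with vehicle and 28.4, 29.3 and 29.2 CPM with dDAVP (2.51-fold, log2 1.33, SE 0.119, adjusted p = 1.18e-05). Atp1b1, the beta subunit of the same pump, rose from 240.3, 237 and 244 CPM to 349, 341 and 406 CPM. The osmosensitive channel Trpv4 rose 1.36-fold, from 97.8, 99.1 and 102 CPM to 138, 128 and 141 CPM. The epithelial sodium channel gene Scnn1a was not among them (log2 -0.18, SE 0.0873, adjusted p = 0.403). On log2 TPM the count of higher genes was 3.

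Principal cell markers were called higher in 5 of 14 tested, and none lower (35.7%, beside 2.78% of all tested genes). Aqp2 and Avpr2 are also members of lists above. Their summed level was 2675 to 2715 CPM in the vehicle libraries and 3032 to 3420 CPM in the dDAVP libraries. The keratins Krt18 and Krt8 hold most of that sum: Krt18 rose 1.29-fold, from 1099, 1114 and 1149.7 CPM to 1431, 1560.4 and 1344 CPM, while Krt8 reached 1256, 1314 and 1066 CPM from 1035, 1013 and 1037 CPM without passing the test (adjusted p = 0.0756). Tmem45b, a membrane protein gene of principal cells, rose 1.65-fold. The count fell to 3 without vehicle replicate 2. Among intercalated cell markers 3 of 7 tested (42.9%) were called higher (1 without vehicle replicate 3). The proton pump subunit Atp6v0a4 rose from 12.7, 11.4 and 11.5 CPM to 21.3, 23.3 and 19.5 CPM, and it overlaps Tmem213 and D630045J12Rik. Slc4a9, a bicarbonate transporter of type B intercalated cells, had 0, 7 and 0 reads with vehicle and 38, 43 and 36 with dDAVP, a ratio of 15.3 (95% counting interval 7.18 to 38.8). Its call was lost without vehicle replicate 1 (adjusted p = 0.0692) or 3 (0.0573). In control-siRNA cells the same gene had 0.122, 0 and 0.195 CPM with vehicle and 0.255, 0.303 and 0.211 CPM with dDAVP, and the difference between the arms was not called (interaction unadjusted p = 0.0304, adjusted p = 0.918).

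Genes that move or anchor the Aqp2 protein gave no call, beside 2.78% of all tested genes. At that share a list of this size may hold no call, so the count does not set these genes apart. Of 30 tested genes of Aqp2 trafficking and cortical actin, edgeR called 0 in either direction, and 1 was called lower on log2 TPM. The list median was 0.02. Of 19 tested regulators proposed for Aqp2 transcription 2 were called (10.5%), both higher. They were Elf3 and Grhl1, both epithelial transcription factors. Elf3 rose 1.43-fold, a call lost on log2 TPM (adjusted p = 0.0859). Grhl1 rose 1.31-fold, a call lost in 7 alternatives. Among them were those without any one vehicle library or dDAVP replicate 2 or 3 (edgeR adjusted p up to 0.154), and limma on log2 TPM (0.205).

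Basement membrane genes fell. Of 28 tested, 0 were called higher and 8 lower (28.6%, beside 2.78% of all tested genes). Of the 8, 6 were called in every alternative, and the list median log2 change was -0.21. Col4a3, Col4a4 and Col4a5, the chains of a specialised type IV collagen network, were among them. Col4a3 (gene ID 12828, chr1:82586921-82722059) had 84.3, 95.3 and 89.7 CPM with vehicle and 56.2, 57.7 and 61.5 CPM with dDAVP, which is 1.54-fold lower (log2 -0.62, SE 0.0598, adjusted p = 1.94e-05). Its head-to-head neighbour Col4a4 (chr1:82448419-82587034) had 164, 165 and 147 CPM against 107, 96.5 and 106 CPM, also 1.54-fold lower. Their spans overlap at the edge, so a small share of reads could belong to either. Col4a5, on another chromosome, fell from 232, 232 and 251 CPM to 180.2, 179 and 171 CPM. P3h2, which hydroxylates prolines of type IV collagen, had 41.9, 39.6 and 39.8 CPM with vehicle and 18.6, 15.7 and 18.1 CPM with dDAVP, and was 2.31-fold lower (log2 -1.21, SE 0.0856, adjusted p = 1.09e-06). The groups did not come near each other. The extracellular matrix protein gene Fras1 fell from 488, 503 and 464 CPM to 364, 311 and 358 CPM. The more widespread chains Col4a1 and Col4a2 were also called, not in every alternative. Among receptors of the matrix, Itgb6, an integrin beta chain, fell 1.33-fold, from 209, 214 and 212 CPM to 158, 161 and 157 CPM.

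Antioxidant and glutathione genes rose in many small steps. Of 24 tested genes of the NRF2 and glutathione list 9 were called higher and 0 lower (37.5%, beside 2.78% of all tested genes). A positive fold change was found in 23 of the 24, and the list median was 0.24, where 8010 of the 16508 tested genes were positive. Srxn1, the sulfiredoxin that repairs peroxiredoxins, had 29.2, 29.4 and 28.7 CPM with vehicle and 46.8, 44.0 and 48.6 CPM with dDAVP (1.60-fold, log2 0.68, SE 0.0574, adjusted p = 6.87e-06). Gclc, the catalytic subunit of the first enzyme of glutathione synthesis, rose from 58.3, 60.7 and 62.5 CPM to 80.3, 81.7 and 77.1 CPM. The transferases Gsta4 and Gstm1 rose 1.56-fold and 1.41-fold, but glutathione transferases have close paralogs between which reads could be split. On log2 TPM the list had 5 higher calls.

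Zinc handling changed in 3 of 16 tested genes (18.8%, beside 2.78% of all tested genes), all higher and all in every alternative. The plasma membrane zinc importer Slc39a4 went from 27.4, 23.1 and 26.4 CPM to 68.0, 70.8 and 95.5 CPM (3.05-fold, log2 1.61, SE 0.118, adjusted p = 3.53e-06). Its relative Slc39a14 rose 1.40-fold, from 139.9, 132 and 132 CPM to 184, 194 and 188 CPM. The metal-binding metallothionein gene Mt2, which has close paralogs, rose from 30.7, 30.4 and 32.4 CPM to 55.9, 66.1 and 45.8 CPM. In Mt2 replicate 3 was the lowest dDAVP library, and in Slc39a4 the highest.

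Some genes of innate defence rose. Of 25 tested chemokine and NF-kappaB genes 5 were called higher and 0 lower (20%, beside 2.78% of all tested genes). The median was 0.19, and 3 were called without vehicle replicate 1 or without vehicle replicate 2. Nfkbiz, a nuclear regulator of NF-kappaB, had 78.9, 74.1 and 80.7 CPM with vehicle and 110.0, 112 and 126 CPM with dDAVP. The complement component C3 rose from 181, 188 and 195 CPM to 287, 295 and 397 CPM, and complement factor B (Cfb) 3.14-fold, from 2.84, 2.79 and 3.61 CPM to 9.41, 8.39 and 11.2 CPM. The chemokine Cxcl5 rose 1.94-fold. Of 38 tested interferon response genes 34 had a positive fold change, where 8010 of the 16508 tested genes did, with a list median of 0.28. Of the 38, 5 were called higher (13.2%). They were Oas1a, Isg20, Oasl1, Usp18 and Ifih1, sensors and effectors of the antiviral response. None of these 5 calls stood in every alternative: 0 genes were called on log2 TPM and without vehicle replicate 1, 1 without vehicle replicate 2 and 3 without dDAVP replicate 3. Without control-siRNA replicates, which share the estimate of spread, the count was 3 (vehicle replicate 1) or 2 (vehicle replicates 2 and 3, dDAVP replicate 3), and it was 8 without dDAVP replicate 1 of the knockdown.

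**Figure D3:**
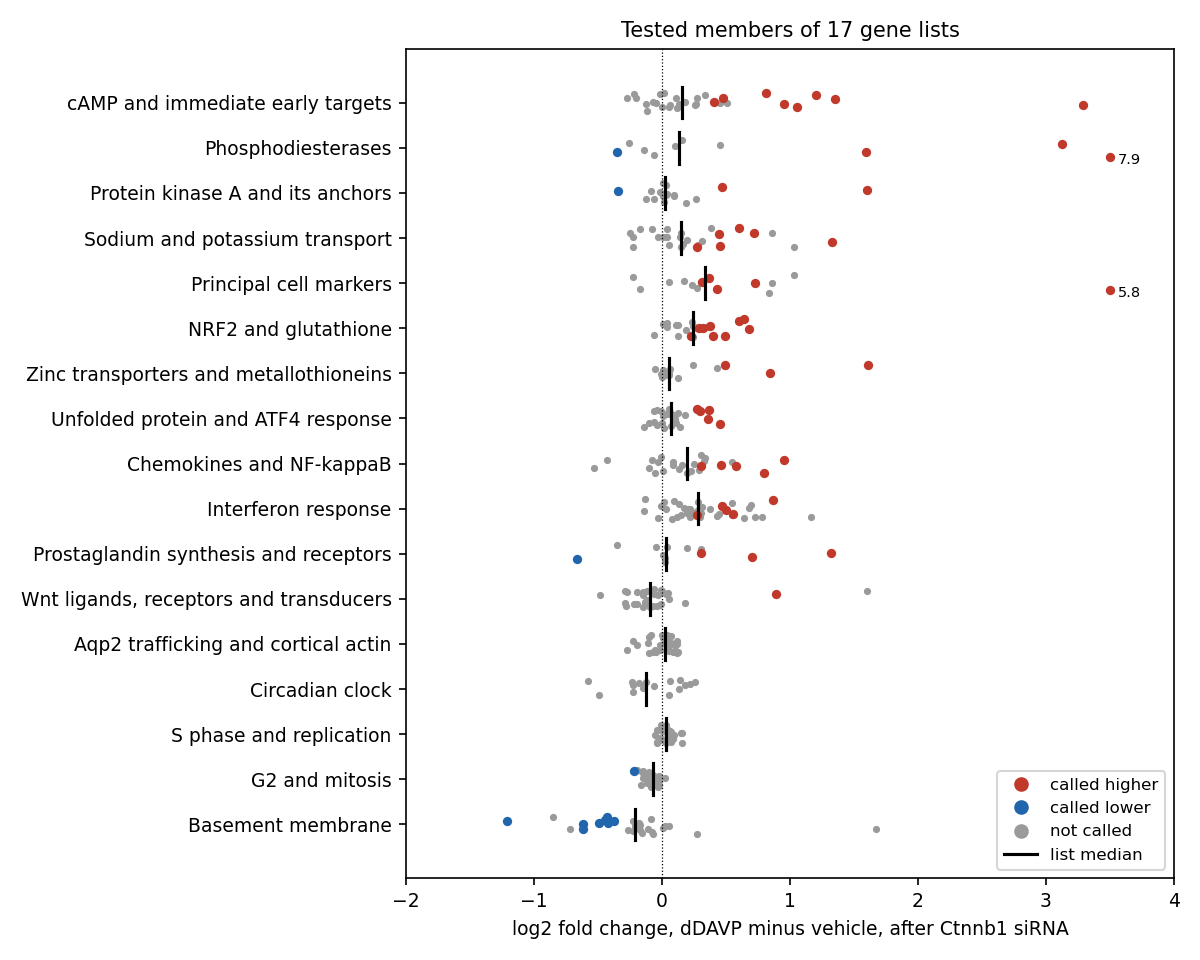
Log2 fold change of dDAVP against vehicle after Ctnnb1 siRNA for the tested members of 17 gene lists, 1 point per gene, with list medians as black bars. Values above 3.5 are drawn at 3.5 and printed beside the point (Pde10a and Aqp2). Red points gather in the upper lists and blue points in the basement membrane list, while the trafficking, clock and S phase lists hold grey points alone.

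Wnt ligands, receptors and transducers were called at a share near that of all tested genes, so the count does not set them apart. Of 35 tested Wnt ligands, receptors and transducers 1 was called (2.86%, beside 2.78% of all tested genes), Fzd4, a Wnt receptor, with 5.80, 7.05 and 7.13 CPM under vehicle and 11.9, 10.9 and 14.3 CPM under dDAVP (1.86-fold, adjusted p = 0.000858). Fzd4 overlaps Tmem135. Positive fold changes were found in 6 of the 35, where 8010 of the 16508 tested genes were positive. The summed level of the 35, with the 1 listed gene that was not tested, was 3135, 3076 and 3019 CPM with vehicle and 2964, 2845 and 2898 CPM with dDAVP, without overlap. Of 9 tested Wnt target genes edgeR called 0, and DESeq2 called 1, voom 2, and edgeR 1 without control-siRNA dDAVP replicate 1 or 2. At the share of all tested genes, a list of 9 may hold no call. The list medians were both -0.10. Catenins, cadherins and desmosome genes gave 1 call in each direction among 20 tested (10%), neither in every alternative. They were Ctnna1 (alpha-catenin, log2 0.28, lost without vehicle replicate 1 or 2, adjusted p up to 0.177 over the alternatives) and the desmosomal cadherin Dsc2 (log2 -0.28, lost without vehicle replicate 3, adjusted p up to 0.0665).

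Growth factor signalling showed both directions. Egfr, the EGF receptor, rose from 140.0, 129.7 and 132 CPM to 188, 190.1 and 219 CPM (1.48-fold, edgeR adjusted p = 0.000109). It was 1 of 3 higher genes among 16 of its family (18.8%, beside 2.78% of all tested genes), and that count was 1 without vehicle replicate 2 or 3. Id3, an inhibitor of basic helix-loop-helix factors, rose 2.06-fold from 2.06, 1.85 and 1.94 CPM to 4.64, 4.27 and 3.16 CPM. Of 18 MAPK feedback genes 3 were called lower and 0 higher (16.7%), and 1 lower without vehicle replicate 2. The small GTPase gene Rasl11a had 13.2, 15.0 and 15.6 CPM with vehicle and 6.69, 7.27 and 5.06 CPM with dDAVP, and was 2.31-fold lower. Fgf18, a fibroblast growth factor, fell from 5.49, 5.05 and 5.20 CPM to 3.37, 2.40 and 2.13 CPM, and the semaphorin and VEGF coreceptor Nrp1 1.36-fold.

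Several enzymes and surface genes changed strongly outside these groups. Baiap2l2 (gene ID 207495, chr15:79258195-79285556), an inverse-BAR protein that shapes plasma membrane protrusions, had 2.57, 3.00 and 3.03 CPM with vehicle and 19.8, 18.0 and 18.9 CPM with dDAVP (6.59-fold, log2 2.72, SE 0.129, adjusted p = 2.11e-08). Its tight replicates and large gap gave the smallest adjusted p among the genes described here. Myo3b, a myosin of actin-based protrusions, went the other way, from 2.82, 3.56 and 3.45 CPM to 1.09, 1.44 and 1.60 CPM. The glycosyltransferases B3gnt7, which extends sugar chains with N-acetylglucosamine, and St6gal1, which adds sialic acid, also parted. B3gnt7 rose 5.67-fold, from 1.25, 2.01 and 1.40 CPM to 7.20, 8.46 and 10.8 CPM, and St6gal1 fell 1.57-fold, from 36.5, 33.8 and 34.6 CPM to 21.2, 22.8 and 22.8 CPM. Arg2, the mitochondrial arginase, had 2.42, 2.10 and 2.59 CPM with vehicle and 8.20, 8.84 and 13.8 CPM with dDAVP, and overlaps Vti1b. Slco2a1, the prostaglandin transporter, rose 2.49-fold, from 1.84, 2.55 and 2.31 CPM to 5.07, 4.50 and 7.14 CPM. Ptgs2, the inducible prostaglandin synthase, rose 1.63-fold (call lost on log2 TPM, adjusted p = 0.0557).

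A further set of risers had few reads. Ugt1a6a, a glucuronosyltransferase that shares exons with other Ugt1a genes, had 0.612, 0.383 and 0.746 CPM with vehicle and 4.42, 3.73 and 5.98 CPM with dDAVP. The chitinase-like gene Chil1 rose 5.40-fold, the gasdermin gene Gsdmc4 5.30-fold, the cornified envelope gene Sprr2g 4.58-fold, the nucleoside transporter gene Slc28a3 4.30-fold and the keratin gene Krt23 3.93-fold. Of these, Gsdmc4 and Sprr2g have close paralogs. Each was under 2 CPM in every vehicle library, and on log2 TPM plus 1 the changes of Ugt1a6a, Chil1, Gsdmc4, Slc28a3 and Krt23 were 1.45, 1.22, 1.20, 0.61 and 1.00 on the log2 scale, against 3.02, 2.43, 2.41, 2.10 and 1.98 on counts. The magnesium transporter family gene Nipal1 and the sulfotransferase gene Sult1d1 were better read. Nipal1 went from 6.29, 6.83 and 9.14 CPM to 23.8, 23.9 and 33.9 CPM, and Sult1d1 from 4.60, 4.10 and 4.78 CPM to 11.02, 12.8 and 22.1 CPM, both with replicate 3 highest.

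Smaller folds were called in metabolic genes. The fatty acid desaturase gene Fads2 rose 1.26-fold, from 275, 288 and 293 CPM to 342, 372 and 361 CPM, and Psat1, an enzyme of serine synthesis, 1.29-fold. Psat1 was 1 of 5 higher genes among 29 of the unfolded protein and ATF4 list (17.2%, beside 2.78% of all tested genes). That count was 3 without vehicle replicate 1 and 1 on log2 TPM. Vnn1, a pantetheinase, fell from 21.8, 25.0 and 26.5 CPM to 16.0, 14.8 and 11.4 CPM, and the sialomucin gene Podxl 1.38-fold. Calls in the cell division lists were few, as they were over all tested genes (2.78%). They made up 3.03% of the G2 and mitosis list and 0% of the S phase list. S phase genes gave 0 in edgeR and 1 in DESeq2, with a median of 0.03. Of 33 tested G2 and mitosis genes 1 was called lower (Ccna2, 1.16-fold, lost in 11 of 21 alternatives, 8 of them with 1 library left out, adjusted p up to 0.153), and the median was -0.07. Only 1 of the 33 had a positive fold change, where 8010 of the 16508 tested genes were positive. In 7 of the 33 the dDAVP libraries all lay below the vehicle libraries, a pattern seen in 8.30% of all tested genes. The summed level of these 33 genes was 7535, 7579 and 7800.5 CPM with vehicle and 7042, 7202 and 6852 CPM with dDAVP, without overlap, and the list median with control siRNA was -0.12.

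The weight of replicate 3 in these results was read from the order of the dDAVP libraries. It was the highest of the 3 in 224 of the 344 genes called higher (65.1%), against 39.7% of all tested genes, and the lowest in 57 of the 115 called lower (49.6%), against 38.8%. Without it, 347 of the 459 calls were kept, 112 were lost and 145 other genes were called. Without it the fold went from 5.30 to 4.17 for Gsdmc4, from 4.58 to 3.71 for Sprr2g, from 4.34 to 3.60 for Arg2, from 3.41 to 2.65 for Sult1d1, from 3.03 to 2.54 for Akap12 and from 3.05 to 2.71 for Slc39a4, each still called. The fold without replicate 3 was 2.64 for Pde4d, 3.22 for Nipal1 and 3.39 for Slc28a3. It was 5.02 for B3gnt7, 2.14 for Slco2a1 and 1.55 for C3, each also still called. To read the response in each library from genes not chosen by their change in these samples, the 316 genes called higher and the 151 called lower in control-siRNA cells were followed in the knockdown. The filter, scaling and estimate of spread behind those calls came from all 12 libraries. The 316 lay at medians of 0.39, 0.43 and 0.54 above the vehicle mean (log2) in dDAVP libraries 1, 2 and 3, and between -0.03 and 0.04 in the vehicle libraries. The 151 lay at -0.18, -0.21 and -0.26 in the dDAVP libraries. The direction was thus present in each dDAVP library, and replicate 3 was at the far end both ways. The part of its RNA composition in this was not tested.

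**Figure D4:**
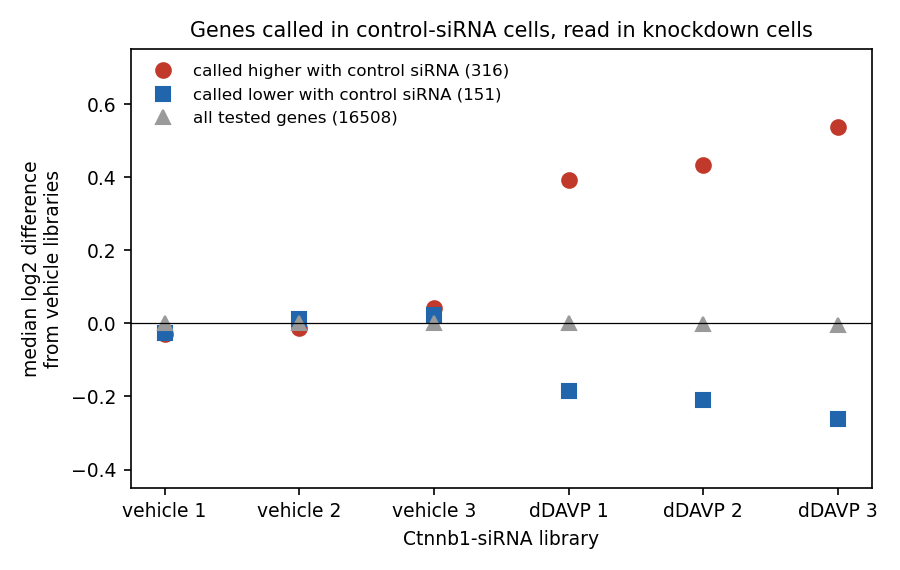
Median log2 difference from the mean of the vehicle libraries, in each of the 6 Ctnnb1-siRNA libraries, for genes called higher (316, red) or lower (151, blue) by dDAVP in control-siRNA cells and for all 16508 tested genes (grey). Vehicle libraries sit near 0, and dDAVP libraries lie between 0.39 and 0.54 for the red set and between -0.26 and -0.18 for the blue set.

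The knockdown response was set beside that of control-siRNA cells, whose changes rest on 6 other libraries. Both sets of calls came from the same fit and share its estimate of spread for each gene. In control-siRNA cells 2.83% of tested genes were called. Of the calls made after knockdown 61.7% were also called there, and of the control calls 60.6% after knockdown, 283 genes in all and 0 with opposite signs. The other 176 calls of the knockdown were not shown to be particular to it, and 166 of them had the same sign in control-siRNA cells. The difference between the responses was tested as an interaction, which edgeR called for 0 genes (0.00% of those tested), with a smallest adjusted p of 0.865. An unadjusted p under 0.05 was found for 829 genes, near the share that this threshold lets through where no response differs. That count was above this share in some alternatives: 1739 without knockdown dDAVP replicate 3, 1422 without control-siRNA dDAVP replicate 2 and 1878 with voom. In voom, knockdown dDAVP replicate 3 had the lowest sample weight, 0.266. Without knockdown vehicle replicate 1 the count was 541, below the share. Each of these had 0 genes called, and the part of replicate 3 in the count was not tested. DESeq2 called 1 gene, Nr4a1 (log2 difference -0.56, adjusted p = 0.00859). In that gene the knockdown vehicle libraries, at 14.4, 13.1 and 13.6 CPM, were above the control-siRNA vehicle libraries, at 10.7, 9.33 and 9.96 CPM, and the dDAVP libraries of the arms lay at 30.4 to 32.9 and 33.2 to 35.1 CPM. In edgeR the same difference was -0.55 (SE 0.100, unadjusted p = 5.24e-05, adjusted p = 0.865), so the call depends on the tool.

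No other gene described here passed that test either. For Aqp2, control-siRNA cells reached 7.69, 4.78 and 5.88 CPM with dDAVP, above the 4.09, 3.91 and 3.26 CPM of the knockdown, from near 0 in both (interaction unadjusted p = 0.0449, adjusted p = 0.918). Pde4b and Aqp5 differed by -0.04 (SE 0.235) and -0.09 (SE 0.184) on the log2 scale between arms. Entpd3, an ectonucleotidase, had 2.23, 1.98 and 2.17 CPM with vehicle and 3.37, 3.09 and 3.22 CPM with dDAVP in the knockdown. In control-siRNA cells it had 3.14, 3.16 and 2.80 CPM against 2.60, 2.81 and 2.55 CPM, and the interaction was 0.80 (SE 0.189, unadjusted p = 0.000757, adjusted p = 0.918). Its call in the knockdown (1.52-fold) was lost in 6 alternatives, among them those without any one vehicle library or dDAVP replicate 1 (adjusted p up to 0.120). A p that misses the threshold does not show that the responses are alike.

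**Figure D5:**
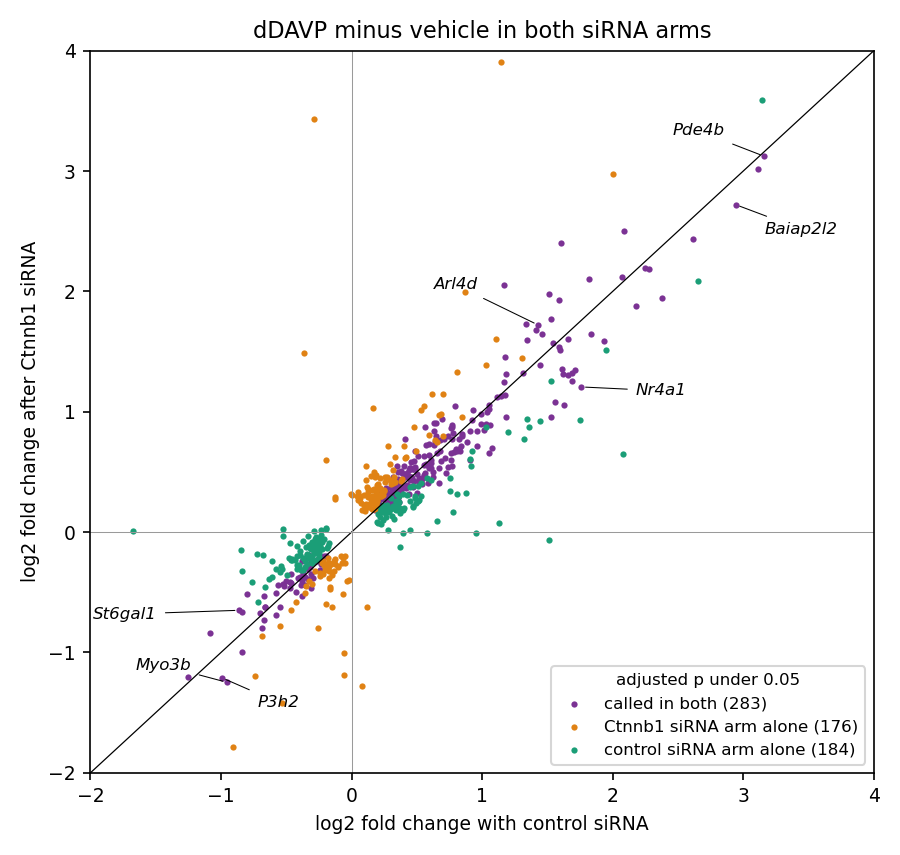
Log2 fold change of dDAVP against vehicle with control siRNA (horizontal) and after Ctnnb1 siRNA (vertical) for genes called in at least one arm, coloured by where they were called. The diagonal is equal response. Genes called in both arms lie near it, and 15 called genes, Aqp2 and Pde10a among them, lie outside the plotted range.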

How the data were processed

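Total RNA of 12 libraries, 3 in each of 4 groups, was sequenced after ribosomal RNA depletion with a strand-marking kit, per the labels' protocols. The authors deposited read counts per gene, which are not normalized, and TPM values (scaled to gene length and depth) for the same libraries in one table of 25208 genes. FastQC, Trimmomatic, HISAT2, StringTie, DESeq2 and the build GRCm38 (mm10) are named per the submitters' processing notes, and the use of strand in counting is not given in the sources used here. Groups were taken from the labels, and 0 per-sample columns were not used.

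From the counts, edgeR 4.0.16 in R 4.3.3 filtered low genes (filterByExpr; 16508 genes kept, holding 99.968% of reads), scaled libraries by TMM and fitted a quasi-likelihood model to all 12 libraries. The fit gave dDAVP against vehicle in each siRNA arm and their difference, with Benjamini-Hochberg adjustment over all genes tested and a threshold of 0.05. CPM values use these library sizes. Standard errors are those of the fitted log2 changes. The code was tested on simulated data. DESeq2 1.42.0, limma 3.58.1 (voom, and log2 of TPM plus 1), other scalings and filters, the 6 libraries alone, a replicate block and the loss of each library were run as alternatives. The libraries' depth, 32997720 to 48935473 reads, limits genes of few reads, for which reads and exact counting intervals are given; these cover counting error only.

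The comparison, the genes and the gene lists were chosen with earlier results of these data known. The genes eligible to be named were Ctnnb1 and Aqp2, and the genes of largest fold or CPM difference among those called with groups that did not overlap and a mean of at least 1 CPM, without pseudogenes, small RNAs and predicted genes. Up to 6 called members of each list at any level, the genes of smallest interaction p, and the genes of at least 10 CPM in which dDAVP replicate 3 departed most from its mates, called or not, were added; not all eligible genes are described. Uncalled genes named beside their pathway (Gnas, Adcy6, Creb1, Krt8, Gata3, Hsd11b2, Scnn1a), called list members beyond the 6 (Btg2, Nr4a3, Col4a1, Col4a2) and overlapping genes were chosen after their values were seen. List medians are over tested members. Promoter windows and gene positions come from RefSeq on GRCm38.p6, matched by gene ID, and by symbol for the printed windows of Aqp2 and Nr4a1. Results for some genes are not reported here.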

Additional observations from a re-analysis of the deposited data

How the results depend on the processing

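The main counts of 344 higher and 115 lower genes were recomputed under 21 alternatives. DESeq2 called 523 higher and 205 lower, voom with sample weights 223 lower, the fit of the 6 knockdown libraries alone 222 and 53, and limma on log2 TPM 133 higher. With 1 library left out the counts ranged from 181 to 357 higher and from 31 to 149 lower. For the interaction, edgeR called 0 genes throughout, with or without each library, and DESeq2 1. The replicate block gave 318 higher and 97 lower, and kept 391 of the 459 calls. Same-numbered libraries of the compared groups had deviations that correlated at 0.03, -0.03 and 0.00. With 3 libraries per group, these values do not decide whether same-numbered samples were handled together. Across the siRNA arms the correlations ran from -0.15 to 0.29 for same-numbered libraries and from -0.37 to 0.41 for the others. For the 161 genes eligible to be named, 2987 fold changes under an alternative kept direction and call, 377 lost the call and 9 gained it, and 0 of the 145 called among them reversed. The cause of each move was not tested. Depth limits genes such as Aqp2, Pde10a and Slc4a9, whose folds against almost no vehicle reads are uncertain.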

Other observations

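Nuclear genes of oxidative phosphorylation, which build the mitochondrial respiratory chain, had a median log2 change of 0.06. A positive fold change was found in 8010 of all 16508 tested genes and in 29 of the 31 tested in this list. Of these edgeR called 0 and DESeq2 1. Genes of the circadian clock gave 0 calls in edgeR among 17 tested and 1 lower in DESeq2, with a median of -0.13. Without dDAVP replicate 1 or 3 edgeR called 1 clock gene lower, and without dDAVP replicate 2 it called 1 higher. Of 14 p53 target genes edgeR called 0, voom 1, and edgeR 1 without dDAVP replicate 3. Over all tested genes edgeR called 2.78%, so lists of these sizes may hold no call.

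Deviations from group means were also compared between libraries of different arms. The dDAVP replicate 3 of the knockdown correlated at 0.41 over genes with dDAVP replicate 1 of the control siRNA and at -0.34 with its replicate 2. Genes are not independent replicates, and no test was made of these values.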
